A study of Homo sapiens with 6 samples.

Results

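The mucin and trefoil factor genes MUC1, MUC2, MUC4, MUC5AC, MUC5B, MUC13, MUC16, TFF1, TFF2 and TFF3 were followed in 2 human esophageal adenocarcinoma cell lines. They were found by exact symbol, and all 10 had 1 row in each count table, out of 37493 gene identifiers. The RNA-seq data comprised 4 libraries: Eso26 control, Eso26 siPPARG, OE33 control and OE33 siPPARG. Control cells received a non-silencing siRNA and siPPARG cells an siRNA against PPARG, a lipid-activated nuclear receptor, both delivered by Lipofectamine RNAiMAX. The medium was RPMI-1640 for Eso26 and DMEM for OE33, so line and medium cannot be told apart. Each condition had 1 library, so the spread between cultures is unknown, and all intervals below are 95% intervals for counting error only. Reads without molecular identifiers are not independent molecules, which these intervals do not cover. The labels name neither the number of siRNAs nor the time after transfection.

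Mucins are large glycoproteins whose repeat-rich stretches carry dense O-linked sugar chains. The gel-forming mucins (MUC2, MUC5AC, MUC5B) are secreted and build the mucus layer, while the transmembrane mucins (MUC1, MUC4, MUC13, MUC16) stay on the apical membrane and can pass signals into the cell. Trefoil factors are small secreted peptides made together with mucins, and they protect and help to repair the mucosal surface. In the upper gut the pairs differ by cell type. MUC5AC and TFF1 belong to the gastric surface, TFF2 to gastric mucous glands, and MUC2 and TFF3 to intestinal goblet cells, which also appear in Barrett's esophagus, the lesion from which esophageal adenocarcinoma arises.

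Library totals ran from 16866996 to 23019840 counts, and levels are given in CPM, read counts per library scaled to a common total. The limit that 0 counts allow, 3 counts, lay at 0.129 to 0.181 CPM. All 5 simple epithelial markers (EPCAM, CDH1, KRT8, KRT18, KRT19) were present, with a summed level of 4560 to 8770 CPM per library. Of the 6 squamous markers, KRT13 alone reached 5 CPM in any library, and the summed level was 2.54 to 12.9 CPM. The 6 fibroblast markers summed to 3.86 to 8.15 CPM, the 5 immune markers to 0.656 to 5.56 CPM, the 3 endothelial markers to 0.17 to 3.89 CPM and the 4 fat cell markers to 0 to 0.234 CPM. Of these, only COL1A1 (fibroblast) and CD14 (immune) reached 5 CPM in any library. KRT4, CD3E, ADIPOQ, FABP4 and LEP were at 0 in all 4 libraries. PPARG mRNA, the target of the siRNA, had 2156 counts in OE33 control and 313 in OE33 siPPARG, and was 7.32-fold lower there (interval 6.50 to 8.26). The Eso26 libraries had 259 and 201 counts, a ratio of 0.843 whose interval of 0.698 to 1.02 includes no change. For Eso26, every direction below is therefore that of the library labelled siPPARG.

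The promoters of MUC13, MUC4 and MUC1 are shown because these 3 genes gave most of the reads of the group and divided the lines. Each run is the 250 bases before the annotated start, 5′ to 3′ on the gene's strand, taken from RefSeq on GRCh38.p14. Capitals mark every match, on either strand, to any of 4 motifs. The first, AGGTCA, is the half-site read by nuclear receptors such as PPARG. The second, TATAAA, is a core promoter element. The third, GGGCGG, is read by the Sp and KLF families. The last, AGATAA, is read by GATA factors.
MUC13, chr3:124934752-124935001, minus strand: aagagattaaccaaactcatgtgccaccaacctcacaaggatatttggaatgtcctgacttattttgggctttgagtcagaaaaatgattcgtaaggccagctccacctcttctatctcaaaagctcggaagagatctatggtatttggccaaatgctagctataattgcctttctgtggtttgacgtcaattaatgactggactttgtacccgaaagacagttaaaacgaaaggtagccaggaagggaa
MUC4, chr3:195811930-195812179, minus strand: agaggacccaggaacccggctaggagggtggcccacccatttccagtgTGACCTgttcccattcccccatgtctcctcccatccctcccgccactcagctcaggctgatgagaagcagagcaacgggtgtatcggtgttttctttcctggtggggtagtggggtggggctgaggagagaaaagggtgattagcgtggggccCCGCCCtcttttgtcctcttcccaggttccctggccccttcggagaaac
MUC1, chr1:155192916-155193165, minus strand: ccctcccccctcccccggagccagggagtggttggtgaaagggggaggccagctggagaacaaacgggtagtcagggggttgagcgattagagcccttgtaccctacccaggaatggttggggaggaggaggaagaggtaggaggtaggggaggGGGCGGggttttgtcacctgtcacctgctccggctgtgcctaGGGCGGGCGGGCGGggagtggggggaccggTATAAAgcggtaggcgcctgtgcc

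The 3 windows differed in base composition, with 41.6% G and C in MUC13, 60.4% in MUC4 and 66% in MUC1. The MUC13 window held none of the 4 motifs. The MUC4 window held AGGTCA on the opposite strand 202 bases before the start and GGGCGG on the opposite strand 49 bases before it. The MUC1 window held TATAAA 24 bases before the start and 4 GGGCGG matches, 3 of which form a run where each overlaps the next. Of 34943 RefSeq promoter windows of the same length, 12.1% held AGGTCA, 10.8% TATAAA, 42.5% GGGCGG and 9.19% AGATAA. A match describes letters and not binding. RefSeq promoters were matched for 5 of the 10 genes. The ChIP-seq peak lists are on hg19 and were not set beside these GRCh38 windows.

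The first comparison set the 2 control libraries side by side and asks which mucins and trefoil factors each line expresses. In Eso26, MUC13 and MUC1 were above 5 CPM, with low counts of TFF3 and MUC4 and 1 count of MUC5B. In OE33, MUC4 and, at a lower level than in Eso26, MUC1 were above 5 CPM, with low counts of MUC5AC, TFF1, MUC16, MUC2, MUC13, TFF2 and MUC5B. At 5 CPM or more in either control, 3 of the 10 genes were kept, and all 3 were past 2-fold, where 37.8% of the 11211 genes kept were past 2-fold. Of the 3, MUC4 was higher in OE33, where 21.5% of genes were higher past 2-fold, and MUC13 and MUC1 were lower, where 16.3% were. MUC4 and MUC13 passed this filter only through the line where they were high, so their difference is a description and the other 7 genes are given below by their counts. The median log2 fold of the 3, -1.82, is the value of MUC1 alone and describes no shift of the group. In a bulk library, fewer cells with a transcript and less transcript per cell cannot be told apart.

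**Figure D1:**
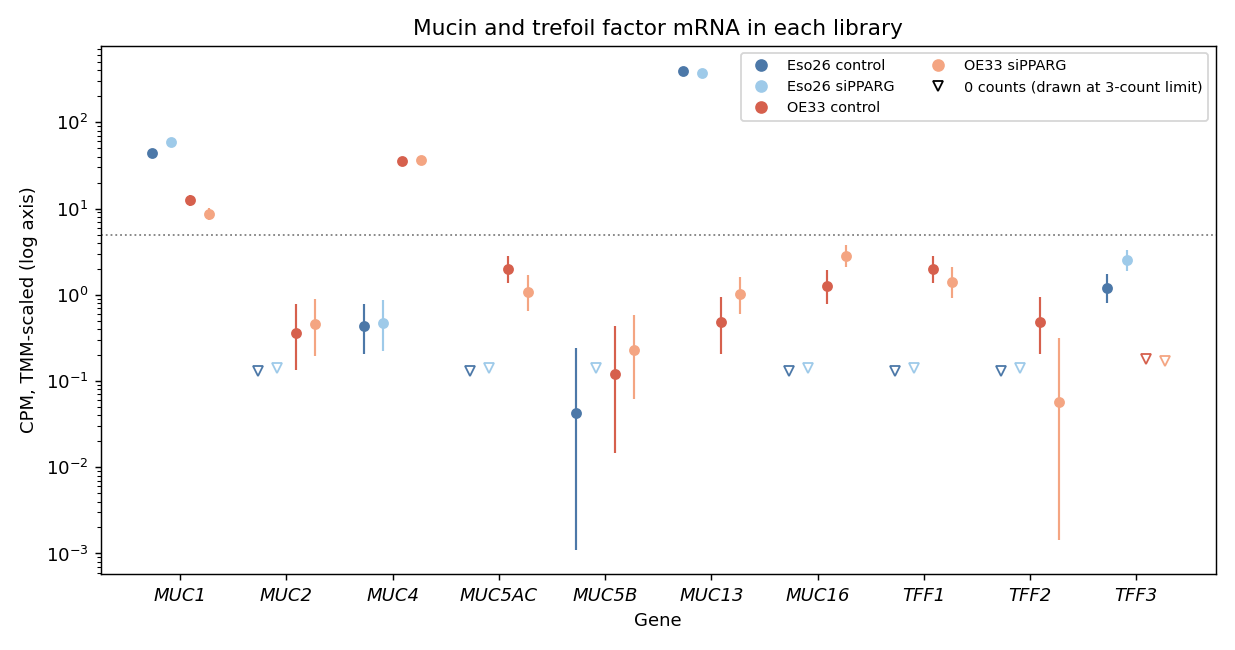
Level of each gene (CPM, log axis) in the 4 libraries, with 95% counting intervals; open triangles mark 0 counts, drawn at the level that 3 counts would give, and the dotted line is 5 CPM. MUC13 stands at 397 and 378 CPM in Eso26 and near 1 CPM or less in OE33, and MUC4 shows the opposite order.

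MUC13, a transmembrane mucin of the intestinal surface, had 9215 counts in Eso26 control, 8073 in Eso26 siPPARG, 8 in OE33 control and 18 in OE33 siPPARG. These were 397, 378, 0.482 and 1.02 CPM. The Eso26 and OE33 libraries did not overlap, and the control level was 823-fold lower in OE33 (interval 418 to 1910). MUC13 made up 89.7% of the reads of the 10 genes in Eso26 control (exact binomial interval 89.1 to 90.3%) and 0.88% in OE33 control (interval 0.381 to 1.73%). Read shares are not shares of molecules, because longer transcripts give more reads and no transcript lengths were used here.

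MUC4, a transmembrane mucin that can associate with the receptor ERBB2, had 10 counts in each Eso26 library, 593 in OE33 control and 648 in OE33 siPPARG. Its levels were 0.431 and 0.468 CPM in Eso26 and 35.8 and 36.8 CPM in OE33. The OE33 control was 83.0-fold higher than the Eso26 control (interval 44.8 to 174), and the pair of libraries within each line lay inside each other's intervals. MUC4 gave 65.2% of the reads of the 10 genes in OE33 control (interval 62.0 to 68.3%). Its protein-coding neighbour in the RefSeq gene order, MUC20, another transmembrane mucin, was also higher in OE33, with 741 counts in Eso26 control and 2108 in OE33 control (3.98-fold, interval 3.66 to 4.33). ERBB2 itself went the other way, with 2850 CPM in Eso26 control and 1120 CPM in OE33 control, a ratio of 0.391 (interval 0.385 to 0.398).

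MUC1, the widely expressed mucin of simple epithelia, was the only gene of the 10 at 5 CPM or more in all 4 libraries. It had 1019 counts in Eso26 control, 1269 in Eso26 siPPARG, 205 in OE33 control and 154 in OE33 siPPARG. The levels were 43.9, 59.4, 12.4 and 8.74 CPM, so both Eso26 libraries stood above both OE33 libraries. Between the controls MUC1 was 3.55-fold lower in OE33 (interval 3.05 to 4.15). MUC16, the giant mucin that carries the CA125 antigen, had 0 counts in both Eso26 libraries and 21 and 50 counts in OE33 control and siPPARG. Where a control had 0 counts, a fold given as "at least" puts 3 counts in place of the 0. It takes the other count as exact, so it is not the lower end of a counting interval. On that basis MUC16 was at least 9.79-fold higher in the OE33 control than in the Eso26 control. For genes whose higher control lay between 1 and 5 CPM, 64.5% of 1888 were past 2-fold between the controls.

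The gel-forming mucins were low in every library. MUC5AC, the main mucin of the gastric surface, had 0 counts in both Eso26 libraries, 33 in OE33 control and 19 in OE33 siPPARG, which made it at least 15.4-fold higher in the OE33 control. MUC2, the goblet cell mucin, had 0 counts in both Eso26 libraries and 6 and 8 in OE33 control and siPPARG. By the same rule it was at least 2.80-fold higher between the controls, a value that takes the 6 counts as exact. MUC5B, a mucin of airways and salivary glands, had 1, 0, 2 and 4 counts in Eso26 control, Eso26 siPPARG, OE33 control and OE33 siPPARG, too few for a fold between the controls. MUC2, MUC5AC and MUC5B follow one another on chromosome 11, and in Eso26 the 3 together gave 1 count over both libraries. Mucin repeats can attract reads that map to several places, and the sources used here do not say how the counting treated them.

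The 3 trefoil factor genes also lie next to one another, on chromosome 21, but did not follow the same pattern across the lines. TFF1 had 0 counts in both Eso26 libraries, 33 in OE33 control and 25 in OE33 siPPARG, at least 15.4-fold higher in the OE33 control. TFF2 had 0 counts in both Eso26 libraries, 8 in OE33 control and 1 in OE33 siPPARG. By the same rule it was at least 3.73-fold higher in the OE33 control, a value that takes the 8 counts as exact. TFF3 showed the reverse, with 28 counts in Eso26 control, 54 in Eso26 siPPARG and 0 in both OE33 libraries. The Eso26 control was at least 6.67-fold higher than the OE33 control for TFF3. All trefoil factor levels were below 5 CPM, and the highest was TFF3 in Eso26 siPPARG, at 2.53 CPM.

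Reads of the 10 genes summed to 443 and 441 CPM in Eso26 control and siPPARG, and to 54.8 and 52.6 CPM in OE33. At least 1 count was seen for 9 of 10 genes in each OE33 library, 5 of 10 in Eso26 control and 4 of 10 in Eso26 siPPARG. Several of the OE33 detections rest on few counts. Over all 37493 identifiers the order was the reverse. There, 17456 and 17434 had at least 1 count in Eso26 control and siPPARG, and 16639 and 16778 in OE33. The higher sum in Eso26 was that of MUC13. Without MUC13 the other 9 genes summed to 45.6 and 62.4 CPM in Eso26 control and siPPARG and to 54.3 and 51.6 CPM in OE33, so the lines overlapped.

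The line difference could be fitted over both treatments, with cell line and treatment as terms on the 4 libraries (edgeR's quasi-likelihood test with Benjamini-Hochberg adjustment over 11382 genes). The libraries of a line differ in treatment and are not replicates, and the fit has 1 residual degree of freedom. It called 71.3% of all genes at an adjusted p under 0.05, so a call by itself does not set a gene apart. MUC1, at 5 CPM or more in all 4 libraries, had a log2 fold of -2.29 in OE33 against Eso26 (edgeR adjusted p = 0.000574). Its SE of 0.25 was worked back from the log2 fold and the test statistic. For MUC13 and MUC4, which entered the fit only through the line where they were high, the fitted log2 folds of -8.99 and 6.32 are given as a description with no test.

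The second comparison asks whether these genes differed after siPPARG within each line. In neither line did any of the 10 genes pass 2-fold among those at 5 CPM or more: 0 of 2 (MUC1 and MUC13) in Eso26, where 0.202% of 10421 genes did, and 0 of 2 (MUC1 and MUC4) in OE33, where 1.49% of 10550 did. The median log2 fold of the kept pair was 0.18 in Eso26, beside -0.01 over all genes, and -0.23 in OE33, beside 0 over all genes. The abundant mucins of each line differed little: in Eso26 the ratio for MUC13 was 0.952 (interval 0.924 to 0.981), and MUC4 in OE33 stood at 1.03 times the control (interval 0.919 to 1.15).

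**Figure D2:**
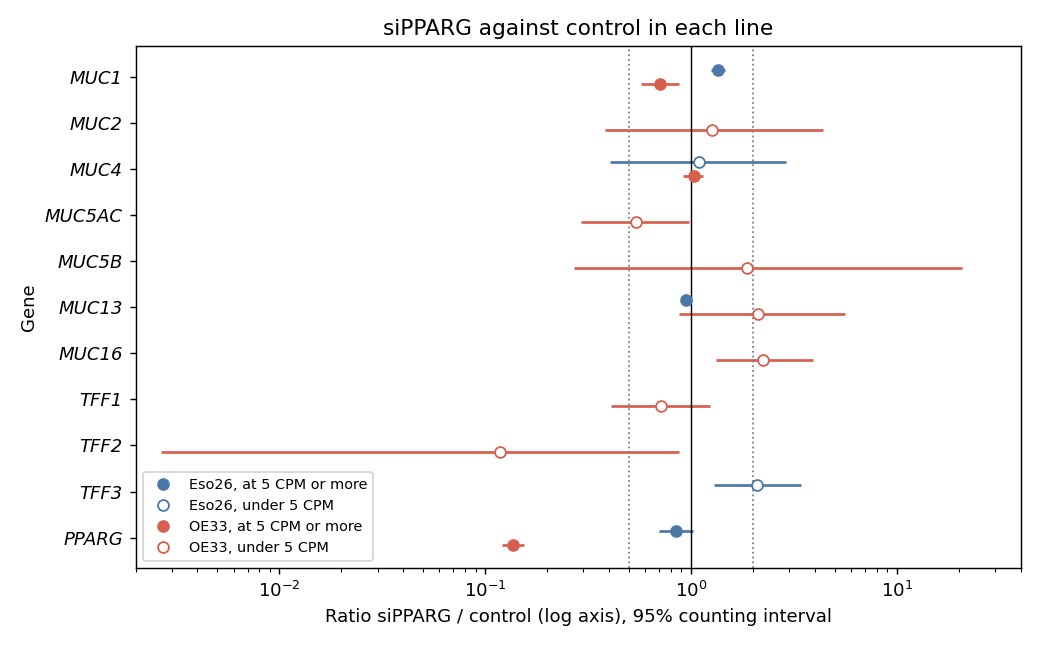
Ratio of siPPARG to control (log axis) for each gene with counts in both libraries, in Eso26 (blue) and OE33 (red), with 95% counting intervals; filled points are genes at 5 CPM or more and dotted lines mark 2-fold. MUC1 lies above 1 in Eso26 (1.35) and below 1 in OE33 (0.707), while PPARG is far below 1 in OE33 only.

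MUC1 differed in opposite directions in the lines. In Eso26 it went from 1019 to 1269 counts, 1.35-fold higher in the library labelled siPPARG (interval 1.25 to 1.47). In OE33 it went from 205 to 154 counts, a ratio of 0.707 (interval 0.570 to 0.876). Neither counting interval includes 1, as for 53.3% of the genes at 5 CPM or more in Eso26 and 50.5% in OE33. The difference between the lines was not tested, because each line has 1 library per condition.

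Below 5 CPM, the OE33 values rest on few counts. MUC16, with 21 counts in control and 50 in siPPARG, was 2.24-fold higher (interval 1.32 to 3.93). MUC5AC went from 33 to 19 counts, a ratio of 0.542 (interval 0.291 to 0.982), and TFF2 from 8 to 1 count, a ratio of 0.118 (interval 0.00265 to 0.878). The remaining OE33 ratios had intervals that include 1: 0.713 for TFF1, 2.12 for MUC13 (8 to 18 counts), 1.26 for MUC2 and 1.88 for MUC5B (2 to 4 counts). TFF3 had 0 counts in both OE33 libraries. Of all genes whose higher OE33 library lay between 1 and 5 CPM, 18.2% had a counting interval that excludes 1, the background for MUC16 and MUC5AC. TFF2 lay below that range.

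In Eso26, TFF3 had 28 counts in control and 54 in siPPARG and was 2.10-fold higher (interval 1.30 to 3.44). MUC4 held 10 counts in both libraries. The other 6 genes held at most 1 count in either Eso26 library. Among genes whose higher library lay between 1 and 5 CPM, 2.94% of 1972 were higher past 2-fold in Eso26 and 5.93% of 1719 in OE33, and 16.5% in Eso26 had an interval that excludes 1. These shares are the background for TFF3 and MUC16, which both belong to that range of levels.

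Fitted over both lines, none of the 3 genes at 5 CPM or more, nor of the 7 at 1 CPM or more, was called for siPPARG. The treatment term gave log2 folds of 0.04 for MUC1, 0.05 for MUC4 and 0.07 for MUC13, with edgeR adjusted p of 0.993, 0.987 and 0.982. With a filter of 1 CPM, the log2 folds were 1.15 for MUC16 and 1.06 for TFF3 (edgeR adjusted p = 0.974 for both). MUC16 had 0 counts in both Eso26 libraries and TFF3 in both OE33 libraries, so each of these values rests on 1 line alone. By edgeR's quasi-likelihood test, 0 of 11382 genes (0%) passed an adjusted p under 0.05 and 4.59% had an unadjusted p under 0.05, DESeq2 called 13 genes and limma-voom 0. A response in 1 line alone counts as spread in this fit, so a missing call does not show a missing response. PPARG itself was not called (log2 fold -1.67, edgeR adjusted p = 0.942), although its mRNA was 7.32-fold lower in OE33.

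Other genes of the mucus pathway were read from 6 lists, of which 75 genes reached 5 CPM in either control. Many did so only in the line where they were high, so the counts and medians of a list describe the lines and support nothing further. Between the controls, other mucins had 4 of 14 members at 5 CPM or more, of which 2 were higher and 1 lower in OE33 past 2-fold. Their median log2 fold was 0.79. MUC3A, a transmembrane mucin of the intestine, was lower in OE33, with 38.3 CPM in Eso26 control and 13.2 CPM in OE33 control. OVGP1, an oviduct glycoprotein also named as a mucin, was 3.46-fold higher (interval 2.35 to 5.19), and CD164, a sialomucin, stood at 0.896 (interval 0.872 to 0.920). MUC3A and MUC20 have close copies in the genome, so their counts are uncertain.

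The enzymes that build O-linked sugars on mucins were divided between the lines, with 8 of 23 kept members higher and 8 lower in OE33 past 2-fold (median log2 fold 0.27). ST3GAL1, which caps the chains with sialic acid, had 18 counts in Eso26 control and 3790 in OE33 control, 295-fold higher (interval 186 to 498). GALNT5, which adds the first sugar, was 85.3-fold higher in OE33 (interval 74.3 to 98.4). GALNT8, another member of that family, had 343 counts in Eso26 control and 0 in OE33 control, so it was at least 81.7-fold higher in Eso26. GAL3ST2, a sulfotransferase, had 269 counts in Eso26 control and 2 in OE33 control.

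Of 16 kept genes for mucus secretion and packaging, 7 were higher and 3 lower in OE33 past 2-fold (median 0.90). FCGBP, a protein of the mucus gel, had 3 counts in Eso26 control and 723 in OE33 control, a ratio of 337 (interval 115 to 1640). PIGR, which carries antibodies into the mucus, had 3 and 712 counts. LGALS4, an intestinal galectin, had 1068 counts in Eso26 control and 2 in OE33 control, and AGR3, a relative of the mucin-folding protein AGR2, had 132 and 1.

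Among transcription factors of goblet and gastric surface cells, 4 of 17 kept members were higher and 8 lower in OE33 past 2-fold (median -0.81). The intestinal factors HNF4A and CDX1 had 5271 and 2727 counts in Eso26 control and 2 and 3 in OE33 control. SOX2, a foregut factor, had 198 counts in Eso26 control and 2 in OE33 control.

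Gastric surface and gland markers had 4 of 17 members at 5 CPM or more, of which 3 were higher and 1 lower in OE33 past 2-fold. Each of the 4 passed the filter through 1 line alone, so no median is given. ANXA10, an annexin of the gastric surface, had 0 counts in Eso26 control and 3406 in OE33 control, at least 1590-fold higher. CLDN18, a tight junction gene of the stomach, had 0 and 390 counts, at least 182-fold higher. PSCA, a surface protein of gastric epithelium, had 1 and 1081 counts, while LYZ, which encodes lysozyme, had 571 and 13. The remaining 13 genes, among them the gastrokines GKN1 and GKN2 at 0 counts in both controls, did not reach 5 CPM in either control.

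Of 11 proteases and partners of transmembrane mucins, 4 were higher and 2 lower in OE33 past 2-fold (median 0.41). MMP14, a membrane protease that can shed MUC1, had 3 counts in Eso26 control and 1024 in OE33 control. EGFR was 8.67-fold higher (interval 8.23 to 9.14), and MSLN (mesothelin), a ligand of MUC16, was 3.83-fold higher (interval 3.49 to 4.19) in OE33. The shares past 2-fold in these lists are to be read against the 37.8% of all genes, and no list was tested.

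**Figure D3:**
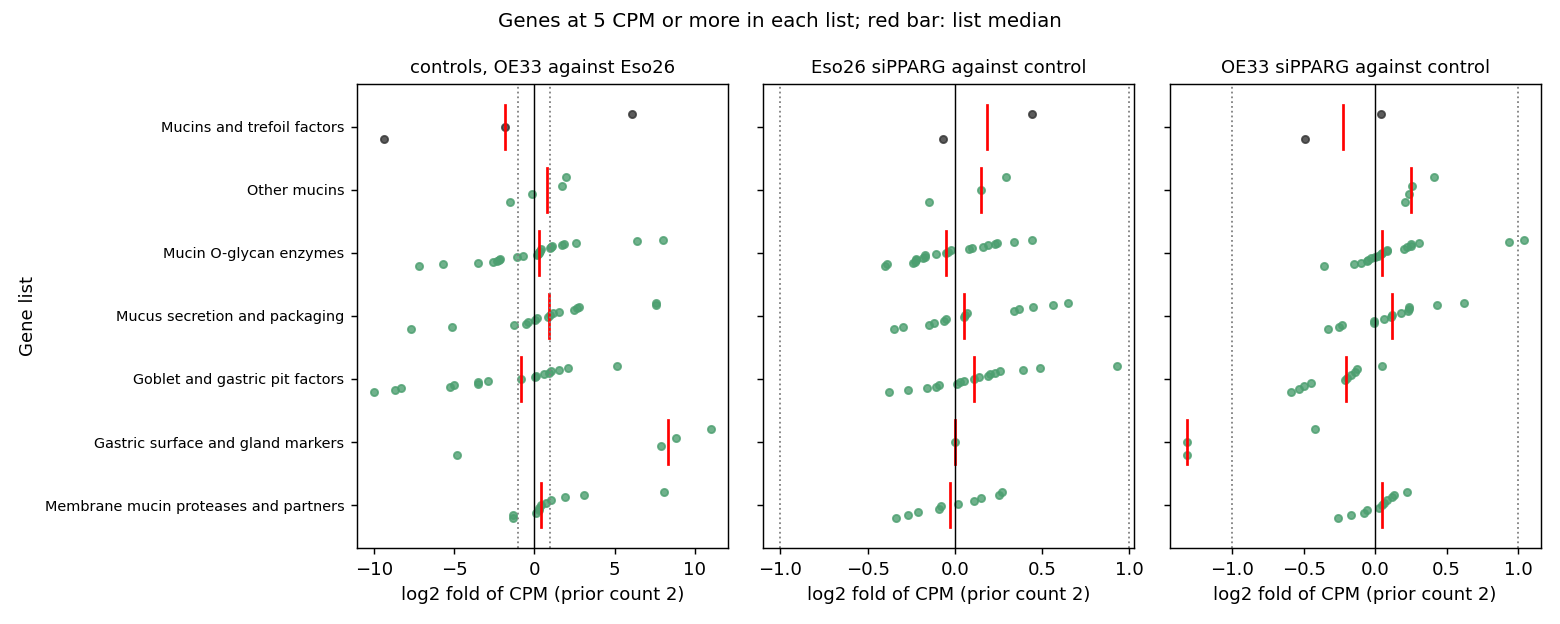
Log2 fold of each gene at 5 CPM or more, by list, for the 3 comparisons (x axes differ in range); red bars are list medians and dotted lines mark 2-fold. Between the controls the lists spread in both directions, while after siPPARG 3 listed genes pass 2-fold, all in OE33.

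After siPPARG in OE33, 3 of 61 kept genes of the lists passed 2-fold (4.92%), beside 1.49% of all genes kept; the lists were not tested. GCNT3, which branches the sugar chains of secreted mucins, had 251 and 552 counts and was 2.07-fold higher (interval 1.78 to 2.41). PSCA went from 1081 to 459 counts, a ratio of 0.400 (interval 0.358 to 0.446), and ANXA10 from 3406 to 1452, a ratio of 0.401 (interval 0.377 to 0.427). Of the goblet and gastric factors, 9 of 10 kept members had a negative log2 fold, none past 2-fold, with a median of -0.20, beside 5228 of 10550 genes with a median of 0. FOXA2 stood at 0.664 (interval 0.560 to 0.786). The 4 kept other mucins had log2 folds above 0 (median 0.25), beside 5322 of 10550 genes, and none passed 2-fold. The ratio of MUC20 to its control was 1.33 (counting interval 1.26 to 1.41), and the intervals of OVGP1 (0.910 to 1.59) and MUC3A (0.986 to 1.42) included 1. FUT3, a fucosyltransferase that makes Lewis antigens, was 1.92-fold higher (interval 1.63 to 2.27). ZG16B, a secreted lectin-like protein, was 1.53-fold higher (interval 1.39 to 1.70), and AGR2, needed for mucin folding, 1.35-fold higher (interval 1.27 to 1.44).

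In Eso26, 0 of 66 kept genes of the lists passed 2-fold in the library labelled siPPARG, beside 0.202% of all genes kept. GCNT3 lay below 5 CPM in both Eso26 libraries and was not kept. It had 105 and 44 counts there, a log2 fold of -1.1, opposite in direction to OE33. This gene was named after its values were seen, and other listed genes below 5 CPM also passed 2-fold in Eso26. Of 1972 genes whose higher Eso26 library lay between 1 and 5 CPM, 1.06% were lower past 2-fold. SPDEF, a factor that drives goblet cell maturation, had 60 and 107 counts and was 1.94-fold higher (interval 1.40 to 2.71). LGALS4 was 1.57-fold higher (interval 1.45 to 1.70), FOXA2 1.41-fold (interval 1.21 to 1.64) and MUC3A 1.22-fold (interval 1.12 to 1.34). C1GALT1, which makes the common core of the sugar chains, stood at 0.759 (interval 0.718 to 0.803). The median log2 folds of the 6 lists in Eso26 lay between -0.05 and 0.15, and the library labelled siPPARG had no detectable loss of PPARG mRNA.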

How the data were processed

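RNA was sequenced in 4 libraries, and the deposited tables give raw counts per gene, whole numbers that were not normalised, per the file headers. Tools listed in the submitters' processing notes are STAR, Bowtie, Trim Galore, MACS2 and Picard, with the build hg19 and no roles; the sources used here do not give the counter, its strand setting or the annotation. The series text speaks of triplicates, but each condition has 1 column, treated as 1 library. Of 37533 rows per table, 40 repeated an identifier and were summed with their partner; 0 rows named no gene.

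Counts were scaled with TMM factors over the 4 libraries (edgeR 4.0.16, R 4.3.3), so that levels compare across lines. Log2 folds are differences of log2 CPM (prior count 2), and a gene was kept if either library compared reached 5 CPM. Ratios carry exact conditional binomial and levels exact Poisson 95% intervals. No test is possible within a line, so genes are described by size (2-fold). The line and treatment terms were tested with edgeR's quasi-likelihood test on the 4 libraries; DESeq2 1.42.0 and limma 3.58.1 were alternatives. The genes and lists were chosen with earlier results of these data known. From each companion list, up to 4 kept genes with the largest absolute log2 fold per comparison could be named. Promoter sequences were searched on both strands. The PPARG peak lists were not used here.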

Additional observations from a re-analysis of the deposited data

Results flagged for a closer look

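MUC1 stood at 1.35 times the control in the Eso26 library labelled siPPARG and at 0.707 times the control in OE33 siPPARG. It was picked out because the lines went in opposite directions and neither counting interval included 1, as for 53.3% of genes at 5 CPM or more in Eso26 and 50.5% in OE33. The difference between the lines was not tested, since each has 1 library per condition, and PPARG mRNA was not detectably lower in the Eso26 library.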

How the results depend on the processing

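There were 8 alternatives for each pairwise comparison and 5 for each term of the fit. Of 86 values of MUC1, MUC4 and MUC13, 83 stayed within their counting interval or on the same side of the threshold with the same sign. A change of the CPM filter cannot alter a pairwise log2 fold. The pairwise values at other filters were therefore the same by construction and say nothing of stability. The 86 also include the line terms of MUC4 and MUC13. These genes entered the fit only through the line where they were high, so those values are not a check either. The log2 fold of MUC13 in Eso26 was -0.03 without a scaling factor. For siPPARG in the fit over both lines, the sign turned for MUC1 with DESeq2 (-0.01) and for MUC13 with limma-voom (-0.02); the cause was not tested, and none of these values was called. Between the controls, 7 of 7 kept genes of the group passed 2-fold with a filter of 1 CPM, beside 41.6% of 13099 genes. With no filter 9 of 10 did, beside 7421 genes or 39% of 19040. All but MUC1 passed the 1 CPM filter only through the line where they were high, so these counts are a description. For genes whose higher control lay between 1 and 5 CPM, 64.5% of 1888 were past 2-fold. After siPPARG in Eso26, 1 of 3 kept genes of the group passed with 1 CPM and 1 of 5 with no filter. In OE33, 1 of 6 and 2 of 9 passed. Over all genes, Eso26 gave 100 of 12393 with 1 CPM (0.807%) and 9 of 9237 with 10 CPM. With no filter it gave 1047 of 18665 (5.61%). OE33 gave 297 of 12269 genes with 1 CPM (2.42%) and 1137 of 17950 with no filter (6.33%). The Eso26 genes past 2-fold divided into 6 higher and 15 lower; unscaled library totals gave 8 higher and 10 lower. The siPPARG term gave 13 calls with DESeq2 and 64 with no filter. No paired analysis was possible because no replicate numbers stand in the labels, other than the pairing of control and siPPARG within a line that the fit over both lines already holds; leaving out a library leaves no residual degree of freedom.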

Other observations

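Flanking genes were named by their position alone and after values were seen. ABCG1 and TMPRSS3 beside the trefoil cluster, and TOLLIP beside the gel-forming mucin cluster, did not share the 0 counts of their neighbours. On the MUC2 side of that mucin cluster, the RefSeq neighbour LOC124902605 was not found among the counted genes, so that side is not described. On chromosome 21, ABCG1, a lipid transporter gene beside TFF3, had 15 and 16 counts in Eso26 control and siPPARG and 42 and 31 in OE33. TMPRSS3, a membrane protease gene beside TFF1, had 27 and 41 counts in Eso26 and 7 and 16 in OE33. On chromosome 11, TOLLIP, an adaptor of innate immune signalling beside MUC5B, had 369 and 390 counts in Eso26 control and siPPARG and 950 and 1188 in OE33. Beside MUC13 on chromosome 3, the integrin gene ITGB5 had 1089 and 1071 counts in Eso26 and 3051 and 2933 in OE33. HEG1, the receptor gene on the other side of MUC13, had 30 and 20 counts in Eso26 and 14 and 27 in OE33. The genes beside MUC16 on chromosome 19, MBD3L1 and OR1M1, had 0 counts in all 4 libraries. Beside MUC1 on chromosome 1, TRIM46 had 2 and 0 counts in Eso26 and 8 and 8 in OE33. THBS3, on the other side of MUC1, had 132 and 167 counts in Eso26 and 102 and 103 in OE33.

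Of the gastric markers below 5 CPM, VSIG1, a junction protein of gastric epithelium, had 0 counts in both Eso26 libraries, 42 in OE33 control and 9 in OE33 siPPARG. It was named after its values were seen.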
